A study of Mus musculus with 6 samples.

Results

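The genes of glycolysis, of lactate production and export, and of the pentose phosphate pathway were followed in thymus RNA of 10-day-old mice, hybridised to Affymetrix mouse whole-transcript arrays. A set of 34 genes was chosen by pathway and arranged by step, from glucose uptake to ribulose phosphate epimerase. Of these, 30 had at least 1 probe set that the annotation pairs with their symbol alone, the brightest of which stood for the gene. G6pdx was added through the probe set number in the study's supplementary list of changed probe sets, so its presence among the members rests on its having changed on these same arrays. The 31 measured members compare with 19938 genes that the annotation names singly. Gpi1, Gapdh and Eno1 had no probe set of their own.

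RUNX2/MYC mice carry the genotype CD2-Myc/CD2-Runx2 on a C57BL6/CBA background (3 arrays), with both transgenes driven by CD2 control elements that act from the common lymphoid precursor on. Wild-type mice, called WT, have the genotype C57/CBA (3 arrays). The study describes littermate-matched controls and a premalignant, polyclonal thymus at this age. Each array is labelled as a separate biological replicate, and there was no group with 1 transgene alone, so the parts of MYC and RUNX2 cannot be told apart. RNA came from whole thymus, in which fewer cells of a type and less RNA per cell cannot be told apart. Values are log2 signals, on which a difference of 1 is a doubling. Calls were made with limma, a moderated linear model fitted over all 35556 probe sets, where the Benjamini-Hochberg adjusted p fell under 0.05. Runx2 itself separated the groups, with log2 signals of 11.73, 11.78 and 11.96 in RUNX2/MYC thymus and 7.94, 7.94 and 7.93 in WT. Over all probe sets RUNX2/MYC replicate 1 and WT replicate 3 stood apart from their groups: their mean Euclidean distance to the other group (57.5 and 62.5) was smaller than to their own (64.4 and 65.7).

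Glycolysis splits glucose into pyruvate, which lactate dehydrogenase can turn into lactate for export, and the pentose phosphate pathway branches off after the first phosphorylation to make NADPH and ribose for nucleotides. Most steps are catalysed by several isoforms from different genes, with tissue-specific distributions. Proliferating lymphocytes are known for high glucose uptake and lactate release, and MYC is a textbook activator of many of these genes through E-boxes, of which CACGTG is the canonical form.

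The promoter letters are shown first because MYC binds CACGTG and RUNX proteins bind the core TGTGGT. In RefSeq promoters of the GRCm38.p6 build (250 bases before to 50 after each start site), 33 of the 34 members were found, with 47 start sites. CACGTG, which reads the same on either strand, occurred in at least 1 promoter of 4 members (Ldha, Slc16a1, Pfkm and Pfkfb3), against 8.09% of all genes. TGTGGT or its complement ACCACA occurred in 7 members (Aldoc, Hk1, Hk2, Hk3, Pdk1, Pfkp and Slc2a1), against 18.9% of all genes. Of the 7 genes called higher, Slc2a3 has no entry in the promoter table, and of the other six only Ldha had CACGTG in this window and none had the RUNX core. No match says only that these letters are not in this window. The Ldha stretch below lies at chr7:46845639-46845781 on the plus strand, from -165 to -23 relative to the start site, and the Slc16a1 stretch at chr3:104638444-104638489 on the plus strand, from -220 to -175. The Pfkm stretch lies at chr15:98092433-98092478 on the plus strand, from -156 to -111 of 1 of its 4 start sites in the table. The Pfkfb3 match, at -53, is not printed. Capitals mark CACGTG.
Ldha: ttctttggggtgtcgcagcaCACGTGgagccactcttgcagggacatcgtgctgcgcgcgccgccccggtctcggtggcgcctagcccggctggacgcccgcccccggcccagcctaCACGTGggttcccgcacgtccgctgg
Slc16a1: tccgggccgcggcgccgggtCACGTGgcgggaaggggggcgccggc
Pfkm: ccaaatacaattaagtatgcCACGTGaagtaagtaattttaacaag

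The study's supplementary list of closely spaced MYC-type and RUNX sites holds 3 members, Aldoa, Eno3 and Hk2, a list that the study drew up from genes it found altered in this experiment. The MYC-type sites listed for Aldoa and Hk2 do not hold CACGTG. That of Eno3 does, and it is shown with CACGTG in capitals beside its 2 neighbouring RUNX sites. The first RUNX site printed holds ACCACA, and the second holds neither TGTGGT nor ACCACA.
Eno3 MYC-type site: gagCACGTGtca
Eno3 RUNX site: agaccacagag
Eno3 RUNX site: ctgtgtggcct

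RUNX2/MYC thymus had higher signals for 7 of the 31 measured members and lower signals for none: the glucose transporter gene Slc2a3, the glycolytic enzyme genes Aldoa, Pgam1, Eno3 and Pkm, the lactate dehydrogenase gene Ldha, and G6pdx. These are 22.6% of the members, where 1.68% of all probe sets, 2.27% of the genes named singly and 5.06% of such genes in the top quartile of signal over all probe sets were called higher, and 0.127% of all probe sets were called lower. Without G6pdx the count was 6 of 30. The median log2 fold change of the members was 0.34, against -0.051 over all probe sets and 0.14 over the genes in the top quartile of signal, to which 20 of the 31 belonged. At an unadjusted p under 0.05 from limma 18 members were higher and 0 lower. The share of all probe sets at that level was not counted, so this count has no background beside it.

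The groups did not overlap for 20 members, every one with the RUNX2/MYC arrays above the WT arrays (64.5%, where 14.3% of all probe sets lay apart in that direction and 10.1% in the other). That share was not counted for genes in the top quartile of signal, to which most members belong. Log2 fold changes ran from -0.21 for Ldhb to 0.84 for Pgam1. The median deviation of the members from their WT mean was 0.27, 0.41 and 0.34 on RUNX2/MYC replicates 1 to 3 and -0.010, 0.0013 and 0.015 on WT replicates 1 to 3. RUNX2/MYC replicate 1, which stood apart from its group over all probe sets, thus lay with its group for the median of these genes.

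The calls depended on which arrays were in the fit, although the groups lay apart for each of the 7 genes called. Leaving out replicate 2 or 3 of the RUNX2/MYC group, or replicate 1 or 2 of the WT group, ended every call among the members, in fits that called 3 or 4 probe sets over the whole array. Without WT replicate 3 there were 4 calls, of which 3 were among the 7 called with all arrays (Slc2a3, Pgam1 and Eno3) and the other was Pdk1, with 1.52% of all probe sets called higher. Without RUNX2/MYC replicate 1 there were 7, of which 5 were among the 7 and the other two were Hk2 and Pfkp, with 2.45% of all probe sets called higher. Centring each array on its 75th percentile also ended every call, with positive differences for the 7 genes in each of these fits. Without both RUNX2/MYC replicate 1 and WT replicate 3, chosen after seeing the data, 18 passed, the 7 among them, in a fit that called 14.2% of all probe sets higher and 20.2% lower. The median log2 fold change of the members lay between 0.28 and 0.37 over the 6 fits that leave out 1 array.

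**Figure D1:**
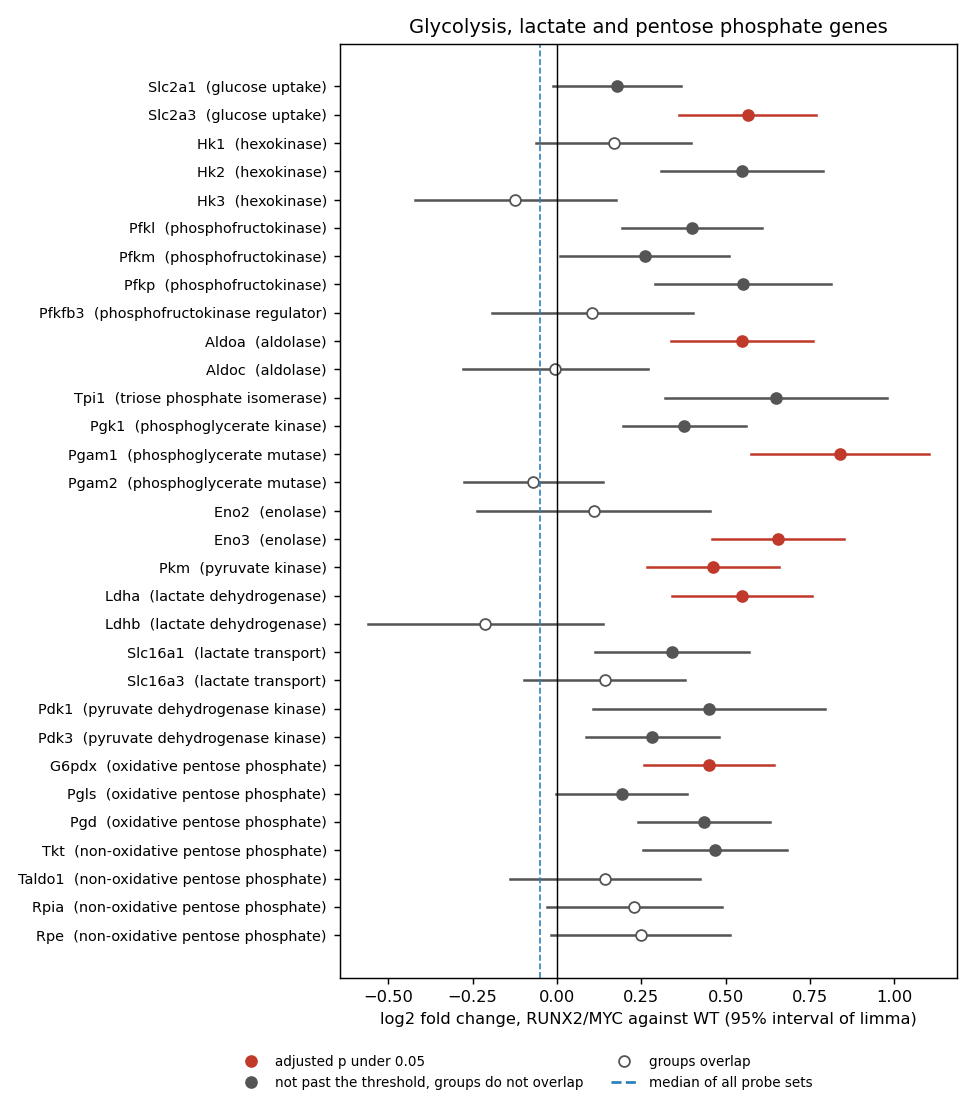
Difference in log2 signal (RUNX2/MYC minus WT, horizontal axis) of the 31 measured members in the order of the pathway (vertical axis), with the 95% interval of limma as a bar. Red points are the 7 genes past an adjusted p of 0.05, filled points are genes whose groups do not overlap and open points are genes whose groups overlap. The dashed line is the median of all probe sets (-0.051), and only Hk3, Aldoc, Pgam2 and Ldhb lie below 0.

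Glucose enters cells through facilitative transporters, and the high-affinity transporter Slc2a3 (GLUT3) was higher in RUNX2/MYC thymus. Its log2 signal was 9.10, 9.11 and 9.22 on RUNX2/MYC replicates 1 to 3 and 8.54, 8.54 and 8.66 on WT replicates 1 to 3, a log2 fold change of 0.57 (SE 0.086, adjusted p = 0.0317 from limma). Slc2a1 (GLUT1), the widely expressed transporter, read 10.00, 9.99 and 9.91 in RUNX2/MYC and 9.75, 9.80 and 9.81 in WT. The groups of Slc2a1 lay apart too, with a log2 fold change of 0.18 (SE 0.080, adjusted p = 0.252) that did not pass. The difference Slc2a3 minus Slc2a1 was -0.82 ± 0.11 (SD, n = 3) in RUNX2/MYC and -1.21 ± 0.052 (SD, n = 3) in WT, and its shift of 0.39 gave the smallest p that 3 arrays against 3 allow (exact permutation test, two-sided, p = 0.1, adjusted p = 0.186 over 13 isoform pairs).

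Hexokinases trap glucose as glucose 6-phosphate. Hk2, the inducible isoform of muscle and of many tumours, had log2 signals of 7.94, 8.12 and 8.07 in RUNX2/MYC and 7.61, 7.37 and 7.51 in WT. All 3 RUNX2/MYC arrays lay above the WT arrays, and the log2 fold change of 0.55 (SE 0.10) stood just outside the threshold (adjusted p = 0.0515 from limma). Hk3, an isoform of myeloid cells, was dim and overlapped between groups, at 6.78, 6.42 and 6.51 against 6.71, 6.82 and 6.55 (log2 fold change -0.12, 0.043 under cyclic loess). Hk2 minus Hk3 was larger by 0.67 in RUNX2/MYC than in WT, without overlap (exact permutation p = 0.1, adjusted p = 0.186).

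Hk1, the widely expressed isoform, had conflicting probe sets. The brightest, at 13.40, 13.31 and 13.22 in RUNX2/MYC and 13.05, 13.12 and 13.25 in WT, rests on 1 accession, which is also listed for each of 16 further probe sets that name Hk1 together with the ribosomal protein gene Rpl17. Those 16 had mean log2 signals of 12.02 to 13.17. Its log2 fold change was 0.17 (adjusted p = 0.331), within the 0.11 to 0.26 of those 16, so its signal cannot be assigned to Hk1. The other Hk1 probe set, which carries RefSeq accessions, read 9.22, 9.52 and 9.42 against 9.42, 9.45 and 9.56, a log2 fold change of -0.094 (SE 0.11, adjusted p = 0.587). With that probe set, chosen after seeing the data, Hk2 minus Hk1 was larger by 0.64 in RUNX2/MYC without overlap (exact permutation p = 0.1), where the brightest one gave 0.38 (p = 0.2). Hk1 minus Hk3 overlapped between groups, with a shift of 0.29 on the brightest probe set (exact permutation p = 0.2) and 0.030 on the other.

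Phosphofructokinase commits sugar to glycolysis, and its liver, muscle and platelet isoforms Pfkl, Pfkm and Pfkp were each higher on every RUNX2/MYC array than on any WT array, while none passed the threshold. Pfkp read 9.85, 10.06 and 10.09 in RUNX2/MYC and 9.30, 9.51 and 9.54 in WT, a log2 fold change of 0.55 (SE 0.11, adjusted p = 0.062 from limma). Pfkl read 8.97, 9.11 and 9.13 against 8.72, 8.61 and 8.67 (log2 fold change 0.40, adjusted p = 0.077). Pfkm, the isoform with CACGTG upstream of 1 of its start sites, read 8.80, 9.11 and 8.97 against 8.63, 8.76 and 8.71 (log2 fold change 0.26, adjusted p = 0.224), with its lowest RUNX2/MYC array only just above the highest WT array. Pfkp minus Pfkm was larger by 0.29 in RUNX2/MYC without overlap (exact permutation p = 0.1, adjusted p = 0.186), whereas Pfkp minus Pfkl (0.15) and Pfkl minus Pfkm (0.14) overlapped between groups. Pfkfb3, which makes the activator fructose 2,6-bisphosphate, also has CACGTG, at -53. It read 8.53, 8.82 and 8.79 against 8.47, 8.56 and 8.79, with overlapping groups (log2 fold change 0.10, adjusted p = 0.611 from limma).

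Aldolase cleaves the 6-carbon sugar, and its ubiquitous isoform Aldoa was higher in RUNX2/MYC thymus. Its log2 signal was 12.05, 11.90 and 11.89 against 11.46, 11.40 and 11.34 in WT, a log2 fold change of 0.55 (SE 0.089, adjusted p = 0.0371 from limma). The brain isoform Aldoc, with a mean signal above 51.1% of probe sets, read 7.60, 7.47 and 7.35 against 7.51, 7.62 and 7.31, with fully overlapping groups. Its log2 fold change of -0.0048 turned sign under quantile normalization, cyclic loess and median centring. Aldoa minus Aldoc was larger by 0.55 in RUNX2/MYC (exact permutation p = 0.1, adjusted p = 0.186), and by less under cyclic loess. Tpi1, which interconverts the triose phosphates, read 11.68, 11.59 and 11.62 in RUNX2/MYC and 11.21, 11.02 and 10.70 in WT. Its log2 fold change of 0.65 was the third of the members in size, but the spread of 0.26 (SD, n = 3) among the WT arrays, with WT replicate 3 the lowest, left an adjusted p of 0.0727. Pgk1, the first ATP-making enzyme of the pathway, read 12.01, 11.99 and 11.95 against 11.62, 11.60 and 11.59 (log2 fold change 0.38, adjusted p = 0.0651). Its 3 probe sets gave 0.36 to 0.38, and 2 of them hold identical values. Pgk1 passed by the methods' own unmoderated test.

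Phosphoglycerate mutase had the largest change of any measured member. Pgam1, the isoform found in most tissues, read 11.33, 11.24 and 11.10 in RUNX2/MYC and 10.52, 10.40 and 10.23 in WT, a log2 fold change of 0.84 (SE 0.11, adjusted p = 0.023 from limma) or 1.79-fold. Its 3 probe sets, 2 of which hold identical values, were each called higher (0.82, 0.82 and 0.84), and since they list the same accessions, and the RefSeq gene table also names Pgam1 pseudogenes, signal from near-identical copies cannot be separated. Pgam2, the muscle isoform, was dim and overlapped between groups, at 6.96, 6.79 and 6.88 against 6.99, 6.96 and 6.89 (log2 fold change -0.070, 0.047 under quantile normalization, 0.084 under cyclic loess and 0.014 under median centring). Pgam1 minus Pgam2 was larger by 0.91 in RUNX2/MYC, the largest of the 13 isoform shifts on the deposited values (exact permutation p = 0.1, adjusted p = 0.186). This shift was smaller under cyclic loess.

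Among enolases the gene called higher was Eno3, which encodes the isoform known from muscle. It read 9.31, 9.31 and 9.40 in RUNX2/MYC and 8.64, 8.74 and 8.66 in WT, a log2 fold change of 0.66 (SE 0.083, adjusted p = 0.0206), the smallest adjusted p of the members. None of 12 markers of skeletal muscle was called, 10 of them had a negative log2 fold change, and their mean log2 signal ran from 6.94 to 7.21 in RUNX2/MYC and from 6.99 to 7.28 in WT. Eno2, the neuronal isoform, was dim, with a mean signal above only 41.3% of probe sets. It read 7.18, 6.92 and 7.01 against 6.98, 6.65 and 7.15 (log2 fold change 0.11, -0.029 without WT replicate 2). Eno3 minus Eno2 was larger by 0.55 in RUNX2/MYC without overlap (exact permutation p = 0.1, adjusted p = 0.186), a shift that was 0.28 with overlapping groups under cyclic loess (exact permutation p = 0.4). Pkm, which encodes the M1 and M2 forms of pyruvate kinase by splicing, read 11.64, 11.64 and 11.67 against 11.10, 11.24 and 11.22, a log2 fold change of 0.46 (SE 0.083, adjusted p = 0.0473). A dimmer Pkm probe set had 0.42 (adjusted p = 0.073), the mean of the pair of probe sets did not pass, and these values do not separate the splice forms.

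For the members without a probe set of their own only indirect values exist. Gapdh appears on 25 probe sets shared with other symbols, its pseudogenes among them, with log2 fold changes of 0.0058 to 0.067 near the top of the signal range (13.35 to 13.98), and none was called. Eno1, the ubiquitous enolase gene, and Gpi1, which makes fructose 6-phosphate, are named only in the study's supplementary list of changed probe sets, so their values describe genes selected for having changed. The 3 probe sets listed for Eno1 had log2 fold changes of 0.43 to 0.57, with 1 called, and the 2 for Gpi1 had 0.36 and 0.39, with none called.

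**Figure D2:**
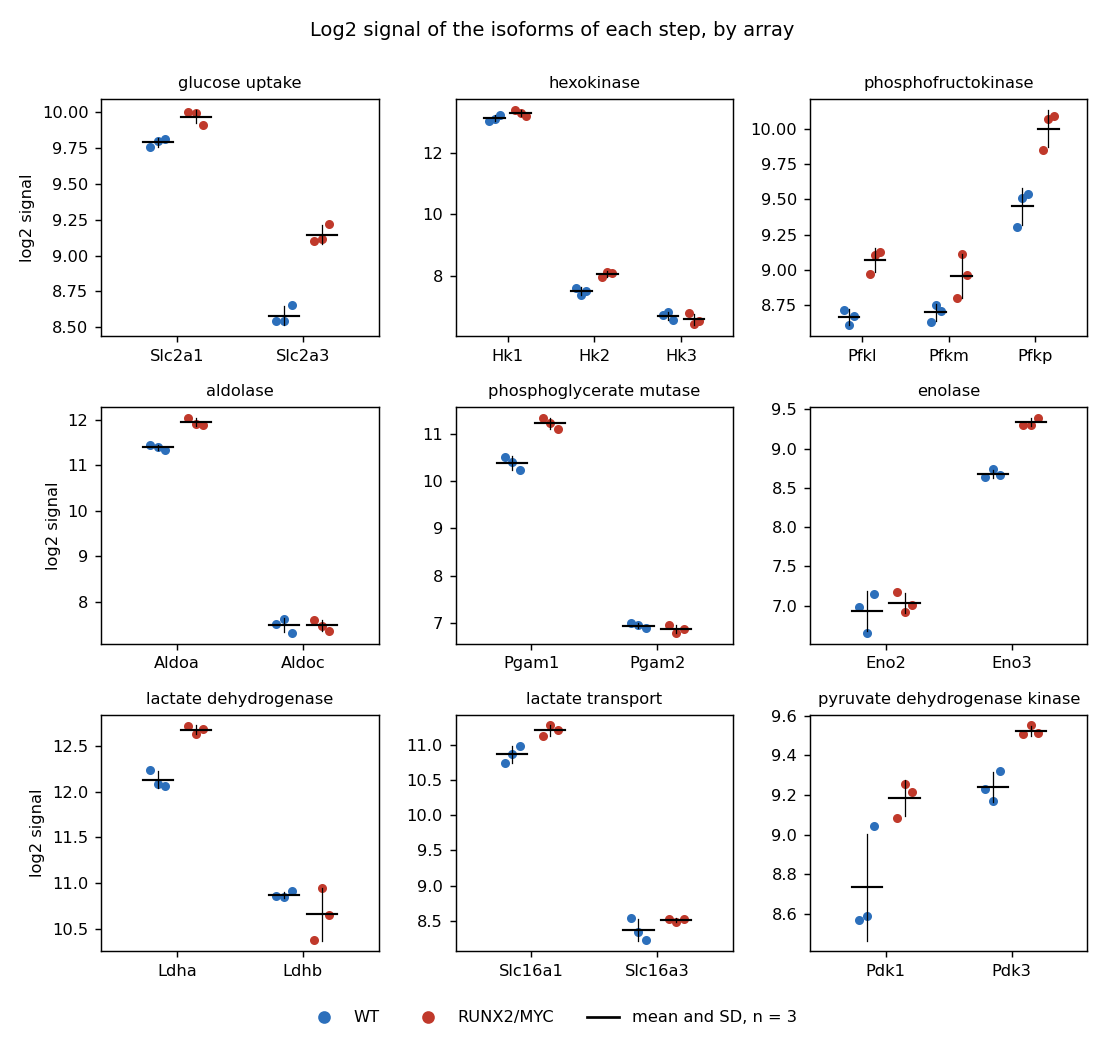
Log2 signal (vertical axis, a separate range in each panel) of the isoforms of each step on the 3 WT arrays (blue) and the 3 RUNX2/MYC arrays (red), with the mean and SD of each group in black. Slc2a3, Hk2, Pfkp, Aldoa, Pgam1, Eno3 and Ldha lie apart between the groups, whereas Hk3, Aldoc, Pgam2, Eno2 and Ldhb overlap. Hk1 is drawn from its brightest probe set, whose signal cannot be assigned to it.

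Of the lactate dehydrogenase genes Ldha was called higher and Ldhb was not called. Ldha, whose subunit favours the making of lactate and whose promoter holds CACGTG at -145 and again at -48, read 12.72, 12.63 and 12.68 in RUNX2/MYC and 12.24, 12.09 and 12.07 in WT. Its log2 fold change was 0.55 (SE 0.088, adjusted p = 0.0363 from limma). Ldhb, the heart-type subunit, read 10.38, 10.95 and 10.65 against 10.86, 10.84 and 10.91, so that RUNX2/MYC replicate 2 lay above the WT arrays and the other two below them (log2 fold change -0.21, SE 0.15, adjusted p = 0.395). A second Ldhb probe set gave -0.16. Ldha minus Ldhb was 2.02 ± 0.33 (SD, n = 3) in RUNX2/MYC and 1.26 ± 0.11 (SD, n = 3) in WT, a shift of 0.76 without overlap (exact permutation p = 0.1, adjusted p = 0.186).

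Lactate leaves cells through monocarboxylate transporters. Slc16a1 (MCT1), which has CACGTG at -200, read 11.13, 11.27 and 11.20 in RUNX2/MYC and 10.74, 10.86 and 10.97 in WT, lying apart with a log2 fold change of 0.34 (adjusted p = 0.132 from limma). Slc16a3 (MCT4), the exporter of strongly glycolytic tissue, read 8.53, 8.48 and 8.53 against 8.54, 8.35 and 8.24 (log2 fold change 0.14, adjusted p = 0.411), with WT replicate 1 as high as the RUNX2/MYC arrays. The shift of Slc16a1 minus Slc16a3 was 0.20 (exact permutation p = 0.3). Pyruvate dehydrogenase kinases hold pyruvate back from oxidation in the mitochondrion. Pdk1 read 9.08, 9.25 and 9.22 against 8.57, 8.59 and 9.04, with WT replicate 3 close to the RUNX2/MYC arrays (log2 fold change 0.45, adjusted p = 0.167). Without WT replicate 3 its log2 fold change was 0.60 and it passed (adjusted p = 0.0491). Pdk3 read 9.51, 9.55 and 9.51 against 9.23, 9.17 and 9.32 (log2 fold change 0.28, adjusted p = 0.144). The shift of Pdk1 minus Pdk3 was 0.17, with overlapping groups (exact permutation p = 0.4).

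**Figure D3:**
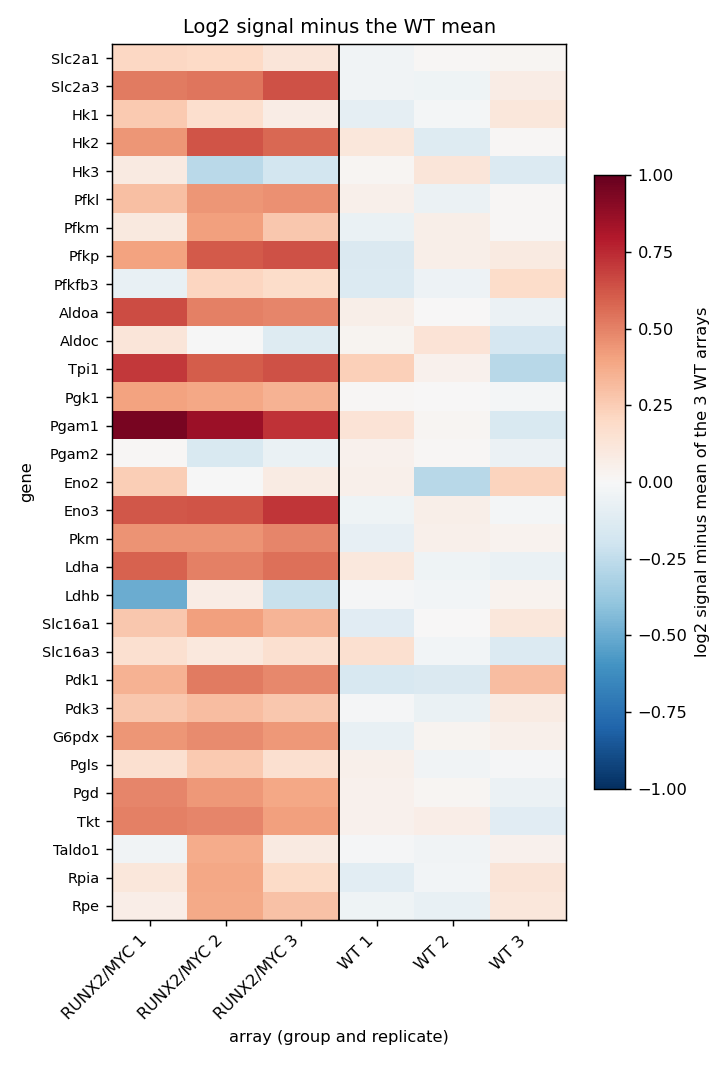
Log2 signal of the 31 measured members (rows, in pathway order) on each array (columns) minus the mean of the 3 WT arrays of that gene, red where higher and blue where lower. The RUNX2/MYC columns have median deviations of 0.27, 0.41 and 0.34, and the deepest blue cell is Ldhb on RUNX2/MYC replicate 1.

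The oxidative branch of the pentose phosphate pathway makes NADPH in steps catalysed by glucose 6-phosphate dehydrogenase (G6pdx), 6-phosphogluconolactonase (Pgls) and 6-phosphogluconate dehydrogenase (Pgd), and the groups lay apart for each. G6pdx read 10.28, 10.31 and 10.28 in RUNX2/MYC and 9.77, 9.87 and 9.89 in WT, a log2 fold change of 0.45 (SE 0.081) at the very edge of the threshold (adjusted p = 0.04999 from limma), for a probe set named through a list of changed ones. Pgd read 10.46, 10.40 and 10.36 against 10.01, 9.99 and 9.91, a log2 fold change of 0.44 (adjusted p = 0.0547). Pgls had a smaller one of 0.19 (adjusted p = 0.237), with arrays from 9.13 to 9.23 against 8.93 to 9.01.

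The non-oxidative branch interconverts sugar phosphates and ribose 5-phosphate, and its members split. Tkt, transketolase, read 10.06, 10.04 and 9.96 in RUNX2/MYC and 9.60, 9.62 and 9.44 in WT, with groups apart (log2 fold change 0.47, SE 0.090, adjusted p = 0.0564 from limma). The other three overlapped between groups, and each was highest on RUNX2/MYC replicate 2. They were Taldo1, transaldolase (0.14, with 9.56 on that array against 9.15 to 9.28 on the other 5), the isomerase gene Rpia (0.23) and the epimerase gene Rpe (0.25). All 7 members of the pathway had a positive log2 fold change, also under each alternative run, with a median of 0.25. The 1 call among them was G6pdx, which is a member through the list of changed probe sets, so 0 of the other six passed. By the study's own kind of test, an unmoderated linear model with q values, 13 members were called higher, Hk2, Pfkl, Pgk1, Pdk3, Pgd and Tkt beside the 7 called by limma, where that test called 3.41% of all probe sets higher. The same unmoderated model with Benjamini-Hochberg adjustment called 2, Pgk1 and Eno3, where 0.456% of all probe sets were called higher.

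Beyond the members, 92 other genes of glucose handling were listed, of which 87 were measured, 3 were higher and none lower (median log2 fold change 0.037). These 3.45% lie between the 2.27% of all genes named singly and the 5.06% of those in the top quartile of signal. Gpd1l, a glycerol 3-phosphate dehydrogenase-like gene, read 8.77, 9.05 and 8.79 in RUNX2/MYC and 8.17, 8.04 and 8.08 in WT (log2 fold change 0.77, adjusted p = 0.0247 from limma). Mthfd1, a folate enzyme that can yield NADPH, had 0.89 (adjusted p = 0.014), while the list of other NADPH sources it belongs to had a median of -0.27 with 4 of its 6 genes negative, none of them called (Me1, malic enzyme, -0.32). Adpgk, an ADP-dependent glucokinase, was higher by 0.51 (adjusted p = 0.044). Gpd1 itself was high on 1 array, RUNX2/MYC replicate 2 (9.33, against 7.34 to 7.70 on the other 5). Markers of adipocytes and brown fat had a mean log2 signal over 11 genes of 8.07 on that array, against 6.85 to 7.27 on the others. Ucp1 (9.93) and Car3 (10.57) were among those high there, whereas Plin4, Lep, Elovl3 and Retn were not highest on that array. The part of adipocytes and brown fat in the values of that array was not tested.

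Further isozymes and transporters had few calls. Of 10 measured further glycolysis isozymes and regulators Adpgk alone was called (median -0.034), and of 8 further glucose transporters none was, 7 having a negative log2 fold change (Slc2a6 -0.22, adjusted p = 0.247, the smallest p of the list). Genes of gluconeogenesis and glycogen entry had 0 of 14 called (median 0.045), with G6pc3, a glucose 6-phosphatase, closest at 0.52 (adjusted p = 0.0545). Further lactate genes had 0 of 7 called (Slc16a6 0.57, adjusted p = 0.106). Further pentose phosphate genes had 0 of 6 (G6pd2 0.30, adjusted p = 0.136). A list of pyruvate entry and pyruvate dehydrogenase genes had 0 of 11, with a median of 0.27 and 10 positive (Pdha1 0.44, adjusted p = 0.0859). Of these only Mpc1 (0.094) encodes a pyruvate carrier. The others encode subunits of pyruvate dehydrogenase or its regulators, the inhibiting kinases Pdk2 and Pdk4 among them.

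Among 8 known regulators of glycolysis none was called. Txnip, which restrains glucose uptake, read 10.59, 11.12 and 10.86 in RUNX2/MYC and 11.32, 11.23 and 11.54 in WT, with groups apart and a log2 fold change of -0.51 (SE 0.16, adjusted p = 0.153 from limma). Of 14 measured genes of the hypoxia response outside glycolysis, which shares many targets with the pathway, none was called and the median was 0.037 (P4ha1 0.41, adjusted p = 0.207). Proliferation markers had 0 of 11 called and a median of 0.033, with mean log2 signals of 11.58 to 11.72 in RUNX2/MYC and 11.60 to 11.66 in WT (Mcm5 0.21, adjusted p = 0.231).

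Markers of other cells in the organ are given because each value averages over them. Thymic epithelium had 2 of 10 lower (Ccl19 -1.02 and Dsc3 -0.56) and none higher, with mean log2 signals of 9.36 to 9.50 in RUNX2/MYC and 9.80 to 9.88 in WT. Thymocyte genes had 0 of 10 called, at 11.19 to 11.52 against 11.53 to 11.67 (Cd4 -0.74, adjusted p = 0.091 from limma). No gene was called among markers of myeloid cells (11 measured, Adgre1 -0.34), fibroblasts and endothelium (10, Col1a1 -0.31), neurons and nerve (6, Syt1 -0.47), B cells (5, Pax5 -0.19), skeletal muscle (12, Actn3 -0.42) or adipocytes (11, Fabp4 0.51). Of 8 erythroid markers only 3 were measured, with mean log2 signals of 8.87, 8.12 and 7.89 in RUNX2/MYC and 7.90, 7.66 and 7.60 in WT, none called (Alas2 1.17, adjusted p = 0.169). The part of these cells in the members' values was not tested.

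**Figure D4:**
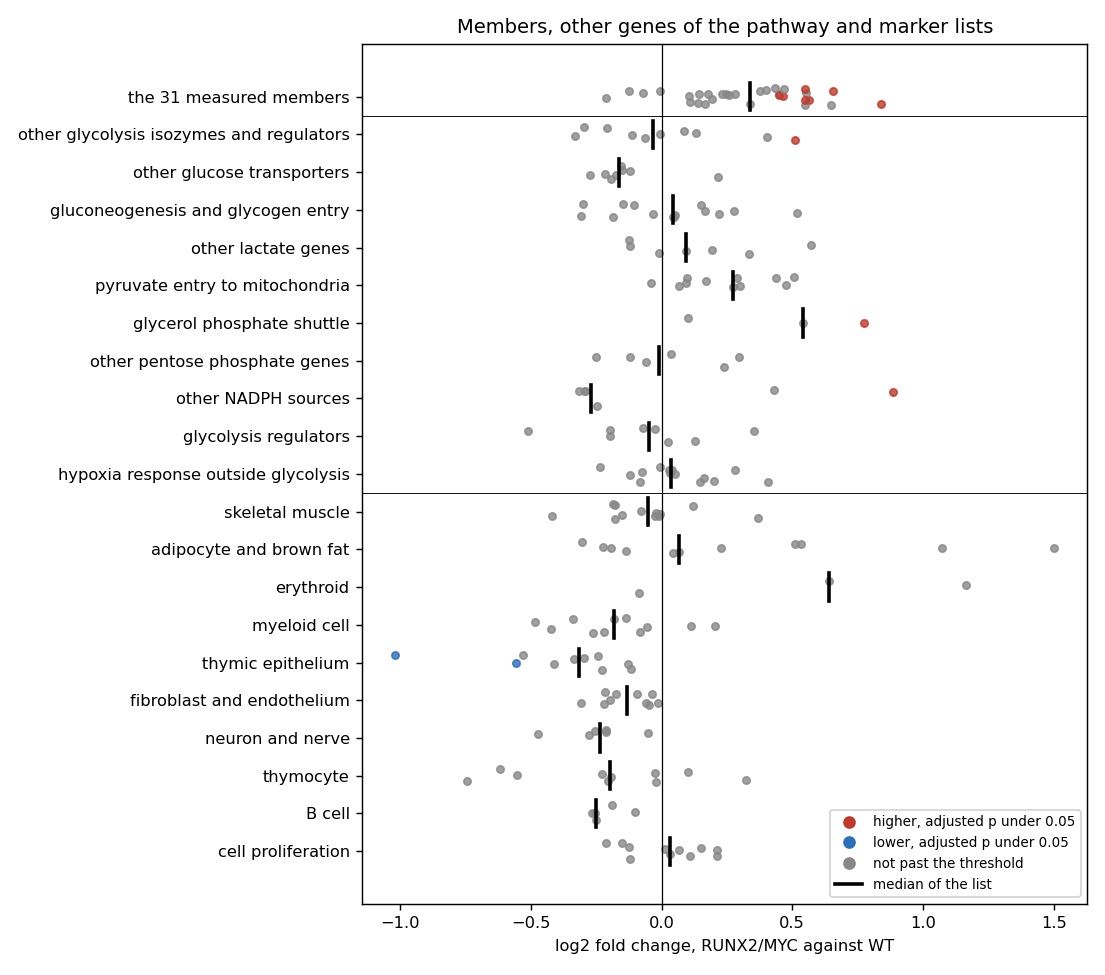
Difference in log2 signal (RUNX2/MYC minus WT, horizontal axis) of each measured gene of the members, of 10 lists of other pathway genes and of 10 marker lists. Points are genes, red or blue where called higher or lower, and black bars are medians, 0.34 for the members, 0.037 for the hypoxia response and 0.033 for proliferation.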

How the data were processed

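The deposited values are log2 signals per probe set, 1 column for each of 6 arrays. The authors made them with RMA (background correction, normalization across arrays, summary of probes). Affymetrix Expression Console 1.4 is the program in the submitters' processing notes, and Partek Genomics Suite, with an adjustment for GC content, the one in the methods. Array medians were 7.31 to 7.49, and the number of arrays limits the precision. Of 35556 probe sets the annotation pairs 21789 with 1 symbol, 1621 with several and 12146 with none. Groups and replicate numbers follow the sample titles. Groups were compared with limma 3.58.1 in R 4.3.3. Its check on simulated data used independent noise and larger changes than those of the members, so it does not cover calls of this size. An unmoderated linear model with q values (after the methods), the replicate block, other normalizations, centrings, filters, array weights and leaving out arrays were alternatives. Isoforms were compared by their difference on each array with an exact permutation test, which cannot give a p below 0.1. In each pair the isoform with the larger log2 fold change was put first, so the shifts are positive by construction. Of the 13 pairs, 7 lay apart between the groups, a count with no background beside it. Members and lists were chosen with earlier results of these data known. Every member is named, with each array's values for those called and for steps with several isoforms, and of the other lists the genes called or, with none, the one of smallest p. Fold change and p columns of the study's supplementary files were not used.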

Additional observations from a re-analysis of the deposited data

How the results depend on the processing

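The 7 members called kept a positive log2 fold change under every setting run, but their calls depended on it, for a cause that was not tested. Against 7 members higher and 0 lower, with 1.68% of all probe sets higher, cyclic loess gave 3 members higher (1.29% of the probe sets tested), median centring 12 (2.57%), 75th percentile centring 0 (0.588%), the filter on dim probe sets 11 (3.04%), probe sets of 1 gene 14 (5.68%), an unmoderated linear model with q values 13 (3.41%) and with Benjamini-Hochberg adjustment 2 (0.456%), trend and robust variance 13 (2.93%), and the fit without RUNX2/MYC replicate 1 and WT replicate 3, added after seeing the data, 18 (14.2%). Array weights, whose estimation stopped before converging, gave 23 higher and 2 lower where 25.8% of all probe sets were called higher and 34.1% lower. Leaving out 1 array gave 0 to 7 higher and 0 lower. The replicate number as a block gave 12 higher, with 4.65% of all probe sets higher and 2.15% lower. The deviations of same-numbered arrays correlated at 0.50, -0.15 and 0.61, and RUNX2/MYC replicate 2 correlated best with WT replicate 3. With so few arrays these values cannot settle whether the numbers pair the arrays. The labels state no pairing, and the block was not used for the main calls.

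The median log2 fold change of 0.34 was 0.23 with quantile normalization, 0.26 with cyclic loess, 0.42 with median centring, 0.24 with 75th percentile centring, 0.28 to 0.37 without 1 array and 0.38 without RUNX2/MYC replicate 1 and WT replicate 3. The median of all probe sets was -0.051, 0.033 under median centring and -0.15 under 75th percentile centring.

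Signs turned only for members outside these 7. Aldoc had 0.066 with quantile normalization, 0.086 with cyclic loess, 0.079 with median centring, and, leaving out 1 array, 0.057 (RUNX2/MYC 3), 0.010 (WT 1) and 0.065 (WT 2). Pgam2 had 0.047, 0.084 and 0.014 in the first 3 of these, Hk3 0.043 with cyclic loess, Eno2 -0.029 without WT replicate 2 (the other fits without 1 array reached 0.22, and array weights gave 0.30) and Hk1 -0.094 on its RefSeq probe set. No isoform shift changed sign under these settings, where each pair had been ordered so that its shift was positive with all arrays. The shift of Pgam1 minus Pgam2 was 0.61 and that of Aldoa minus Aldoc 0.34 with cyclic loess.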
